A study of Homo sapiens with 24 samples.

Results

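The response to YAP1 knockout was compared between 2 lung adenocarcinoma lines while both were under combined EGFR and MEK inhibition. The quantity of interest was the interaction of cell line and knockout: the change from CTRL to YAP1 KO in HCC4006 minus the same change in PC9, on the log2(FPKM + 1) scale, called the line difference below. It rested on 12 of the 24 libraries of the series, in 4 groups of 3: HCC4006 YAP1 KO, HCC4006 CTRL, PC9 YAP1 KO and PC9 CTRL, each kept for 24 hours in osimertinib at 100 nM with trametinib at 30 nM (OT). HCC4006 and PC9 are established non-small cell lung cancer lines with an activating EGFR mutation. Osimertinib blocks mutant EGFR, and trametinib blocks MEK, the kinase just above ERK. The other 12 libraries are the same 4 kinds of cells in DMSO, the solvent, and served for comparison. Groups within a line differ in YAP1 only as far as the labels state, and no source used here says whether a knockout population is 1 clone or a pool. By the column names each line has 1 knockout population of its own. A difference between the lines and a difference between these populations therefore cannot be told apart. Each library is a dish, so p-values measure the spread between dishes. Of 25365 gene rows, 11845 reached FPKM 1 in 3 or more columns of both lines and were tested. FPKM is a read level per length of transcript and per library size.

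YAP1 is a transcriptional coactivator that the Hippo kinases hold in the cytoplasm by phosphorylation. In the nucleus it binds the TEAD factors and drives genes of matrix, adhesion and the actin cytoskeleton, as well as survival and proliferation genes. WWTR1 encodes TAZ, its paralog. In EGFR-mutant lung cancer, YAP activity is known for helping cells to survive EGFR pathway inhibition. A knockout can act differently in 2 lines of the same mutation class. The interaction asks where the knockout change differed between these 2 lines, each with its own knockout population.

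A positive line difference means that the knockout change was higher in HCC4006, which can come from a rise there, from a fall in PC9, or from both. A gene was called when limma's moderated test gave a Benjamini-Hochberg adjusted p under 0.05 over all 11845 rows. Of these rows, 3008 were called higher (25.4%) and 2029 lower (17.1%), 42.5% in all. Differences of at least 2-fold (1 on the log2 scale) were called in 96 rows higher (0.81%) and 196 rows lower (1.65%), and 16 higher (0.135%) and 72 lower (0.608%) lay beyond 2-fold when tested against that size. The median line difference of all rows was 0.046.

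The knockout moved many genes in opposite directions. Under OT the knockout was called in 49.8% of rows in HCC4006 (31.4% higher, 18.3% lower) and in 49.0% in PC9 (25.6% higher, 23.4% lower). Among the 292 rows with a line difference of at least 2-fold, 101 were lower in HCC4006 YAP1 KO cells and higher in PC9 YAP1 KO cells, and 41 had the reverse pattern, together 48.6%. Another 43 rows were called in the same direction in both lines with different sizes, 53 were called in HCC4006 alone, 50 in PC9 alone and 4 in neither. A call in 1 line alone is no test of a difference, but here the line difference was itself called. Over all 5037 called rows the share with opposite calls was smaller, 964 rows or 19.1%.

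**Figure D1:**
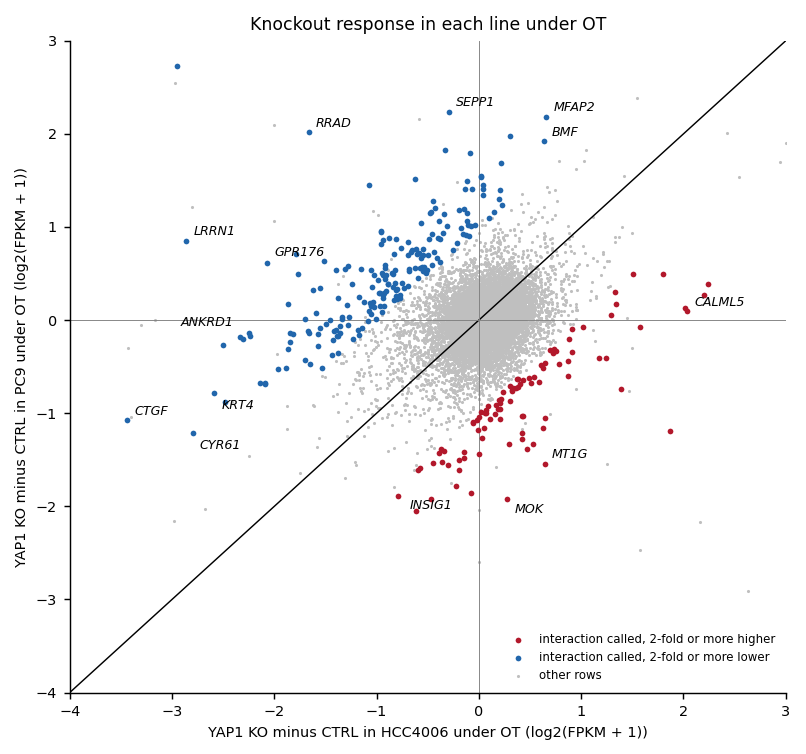
YAP1 KO minus CTRL under OT in HCC4006 (x axis) against PC9 (y axis), both on the log2(FPKM + 1) scale; each point is a row, coloured where the line difference was called and at least 2-fold (96 higher, red; 196 lower, blue). Rows on the diagonal changed alike in both lines; 13 of 11827 rows lie outside the axes.

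Among the 12 libraries 1 stood somewhat apart. FPKM per library summed to 507120 to 593526, and each library correlated with the others of its group at r of at least 0.980 across rows. Absolute depth is unknown; relative depth, taken from the smallest steps between low values, ran from 0.946 to 1.42. HCC4006 CTRL OT replicate 1 was the deepest, and 279 rows (2.36%) lay 0.5 or more from its group mean on the log2 scale, against 105 to 153 rows in the other 11 libraries. Without it 5176 rows were called, 4537 of them called in the same direction with it (90.1% of the 5037) and 0 in the opposite one. All 8 epithelial markers reached an FPKM of 1 in every group, summing to 3107 to 3158 FPKM in HCC4006 YAP1 KO, 4342 to 4701 in HCC4006 CTRL, 7839 to 8059 in PC9 YAP1 KO and 9355 to 9650 in PC9 CTRL. Most of the HCC4006 step was KRT7, with a mean of 1462 FPKM in YAP1 KO against 2840 in CTRL. Most of the PC9 step was KRT8 and KRT18. By calls of the knockout, 3 of the 8 were higher and 3 lower in HCC4006, and 1 higher and 3 lower in PC9.

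YAP1 itself was lower in every knockout library of each line. Its FPKM was 5.97, 6.34 and 6.07 in HCC4006 YAP1 KO, against 16.9, 13.9 and 15.6 in HCC4006 CTRL. In PC9 it was 11.6, 10.1 and 11.3 in YAP1 KO, against 33.8, 34.2 and 34.5 in CTRL. The groups did not overlap in either line, and what was left was 39.6% of the control level in HCC4006 and 32.2% in PC9. The line difference was 0.35 (SE 0.094, adjusted p = 0.0050), so the transcript fell somewhat less in HCC4006 on the log2 scale. WWTR1 was not called (-0.010, adjusted p = 0.919), nor was TEAD1, which encodes a TEAD factor (-0.0056, adjusted p = 0.974). TEAD2, another TEAD gene, differed: it had 31.6, 29.8 and 30.5 FPKM in HCC4006 YAP1 KO and 30.5, 30.3 and 27.03 in HCC4006 CTRL, which overlapped, but 38.3, 37.6 and 36.98 in PC9 YAP1 KO against 21.8, 22.1 and 21.2 in PC9 CTRL (line difference -0.70, adjusted p = 2.27e-08). Of 27 tested members of the Hippo pathway list, 4 were called higher and 7 lower, beside 25.4% and 17.1% of all rows. Leaving out 1 OT library at a time gave 3 to 5 higher and 5 to 10 lower.

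Target genes of YAP and TEAD fell further in HCC4006. Of the 22 genes in the list, 21 passed the filter, and 14 were called lower and 0 higher, beside 17.1% and 25.4% of all rows. The OT line difference counts of every list below are to be read beside these same shares. Counts of members called for the knockout in 1 line under OT, above and below, have other shares over all rows. These were 31.4% higher and 18.3% lower in HCC4006, and 25.6% higher and 23.4% lower in PC9. The tested targets had a median line difference of -0.59, with median knockout changes of -1.04 in HCC4006 and -0.37 in PC9. The median level of the members was 6.76 FPKM in HCC4006 YAP1 KO and 17.98 in HCC4006 CTRL, and 12.05 in PC9 YAP1 KO and 18.8 in PC9 CTRL. Single targets, such as CTGF and F3, stood at different levels in the control cells of the 2 lines.

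CTGF (now CCN2), a matricellular protein and the best known TEAD target, had 3.11, 3.62 and 3.65 FPKM in HCC4006 YAP1 KO, against 43.04, 48.3 and 50.6 in HCC4006 CTRL. In PC9 it had 8.26, 8.60 and 8.08 in YAP1 KO, against 20.5, 20.1 and 15.6 in CTRL. No groups overlapped, and the knockout left 7.32% of the control level in HCC4006 and 44.3% in PC9 (line difference -2.36, SE 0.12, adjusted p = 3.76e-12). CYR61 (now CCN1), its close relative, had 23.02, 23.4 and 23.9 FPKM in HCC4006 YAP1 KO against 159, 178 and 171 in HCC4006 CTRL, and 37.7, 40.004 and 36.1 in PC9 YAP1 KO against 96.9, 91.5 and 80.4 in PC9 CTRL (line difference -1.58, adjusted p = 2.99e-12). CYR61 thus fell in both lines and more in HCC4006. ANKRD1, a nuclear ankyrin repeat protein and TEAD target, had 8.28, 7.17 and 7.88 FPKM in HCC4006 YAP1 KO, against 34.9, 42.9 and 44.5 in HCC4006 CTRL, while PC9 had 0.501, 0.421 and 0.217 in YAP1 KO and 0.489, 0.390 and 0.689 in CTRL, overlapping and all under 1 FPKM (line difference -2.10, adjusted p = 6.94e-11). Under DMSO all PC9 libraries had ANKRD1 above 1 FPKM, and it rose there with the knockout (0.46, adjusted p = 4.64e-04).

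The other targets followed at smaller sizes. F3, which encodes tissue factor, differed by -1.45, AMOTL2, an angiomotin that restrains YAP, by -0.93, AXL, a receptor kinase, by -0.75, TGFB2, a TGF-beta ligand, by -0.69, and IGFBP3, an IGF binding protein, by -0.53 (adjusted p from 5.28e-10 to 9.85e-07). AMOTL2 had 12.2, 13.3 and 12.8 FPKM in HCC4006 YAP1 KO against 43.7, 36.6 and 36.2 in HCC4006 CTRL, and 21.1, 20.8 and 22.1 in PC9 YAP1 KO against 35.4, 32.8 and 30.9 in PC9 CTRL, without overlap in either line. The 7 tested members that were not called had line differences of -0.34 (DOCK5) to 0.23 (LATS2).

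**Figure D2:**
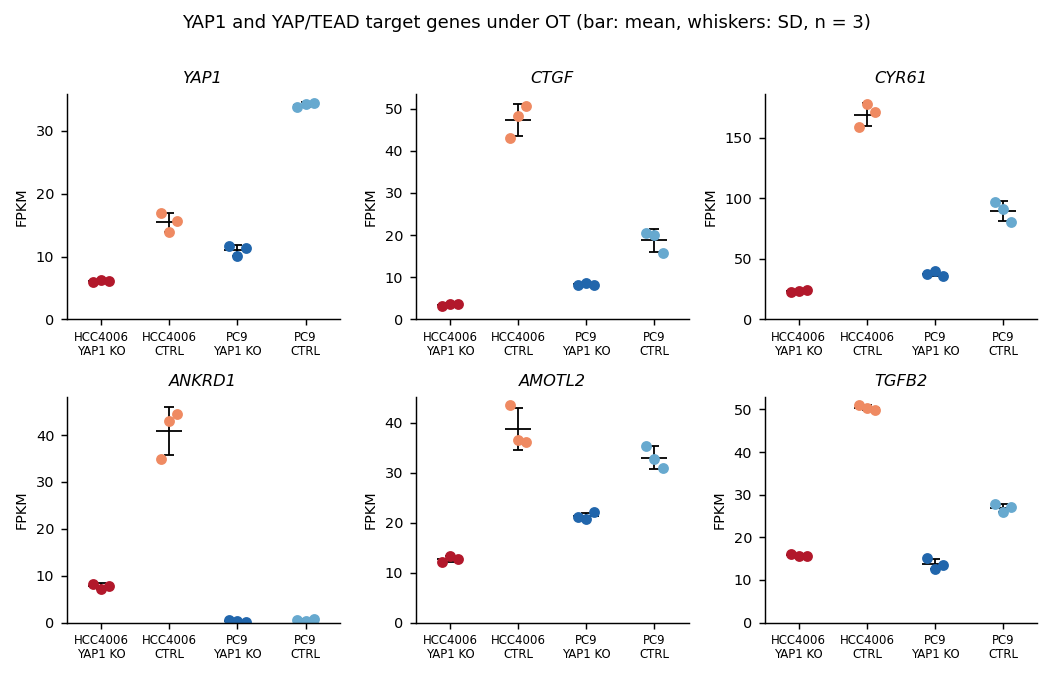
FPKM of YAP1 and 5 YAP/TEAD target genes in each of the 12 OT libraries (points), with the mean and SD of each group of 3. In HCC4006 the YAP1 KO points lie far below CTRL for CTGF, CYR61 and ANKRD1, while PC9 shows a smaller step for CTGF and CYR61 and ANKRD1 near 0.

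The promoters of CTGF, ANKRD1 and CPA4 are shown because these genes had some of the largest line differences and carry the core TEAD motif, CATTCC, which reads GGAATG on the other strand. They are RefSeq sequences of build GRCh38.p14, from 250 bases before to 50 bases after the start, in the direction of transcription, with the motif in capitals. CTGF lies at chr6:131951323-131951622 (minus strand), ANKRD1 at chr10:90921038-90921337 (minus strand), and CPA4, a secreted carboxypeptidase with a line difference of -2.23, at chr7:130292911-130293210 (plus strand).
CTGF: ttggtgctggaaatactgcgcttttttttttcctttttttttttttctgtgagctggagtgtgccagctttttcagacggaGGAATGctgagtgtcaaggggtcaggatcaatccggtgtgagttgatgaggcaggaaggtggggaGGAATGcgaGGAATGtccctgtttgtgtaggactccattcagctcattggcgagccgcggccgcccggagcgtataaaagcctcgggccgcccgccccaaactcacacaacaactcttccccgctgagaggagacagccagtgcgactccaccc
ANKRD1: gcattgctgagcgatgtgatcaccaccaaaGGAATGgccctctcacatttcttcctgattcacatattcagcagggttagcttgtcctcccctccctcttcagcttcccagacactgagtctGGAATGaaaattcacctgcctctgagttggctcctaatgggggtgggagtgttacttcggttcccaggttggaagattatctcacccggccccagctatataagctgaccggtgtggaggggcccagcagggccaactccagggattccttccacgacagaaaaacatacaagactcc
CPA4: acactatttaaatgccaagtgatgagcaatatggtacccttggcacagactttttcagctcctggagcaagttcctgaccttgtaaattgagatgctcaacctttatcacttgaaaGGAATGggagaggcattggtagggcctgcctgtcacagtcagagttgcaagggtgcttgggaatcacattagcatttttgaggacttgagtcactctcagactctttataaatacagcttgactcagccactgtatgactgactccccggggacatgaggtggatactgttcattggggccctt
CTGF holds 3 copies, which begin 169, 104 and 95 bases before the start, ANKRD1 holds 2, at 220 and 128 bases, and CPA4 holds 1, at 134 bases. With both strands searched, 4928 of 35116 RefSeq promoters of this length hold the motif (14.03%), or 16.7% of genes with a promoter in the table. Among the YAP/TEAD list 16 genes had an entry and 9 of them held it in at least 1 promoter. A match describes letters in this window, not a site that was shown to be bound.

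Genes of the actin cytoskeleton and focal adhesions also fell further in HCC4006. Of 34 genes 32 were tested, with 23 called lower, 3 higher and a median line difference of -0.40. In HCC4006 28 members fell and 2 rose, and in PC9 16 fell and 7 rose. MYL9, a regulatory myosin light chain, had 1.76, 1.74 and 2.26 FPKM in HCC4006 YAP1 KO against 12.2, 13.96 and 12.1 in HCC4006 CTRL, and 38.01, 38.6 and 40.6 in PC9 YAP1 KO against 48.2, 45.5 and 39.3 in PC9 CTRL. In HCC4006 the groups were far apart, whereas in PC9 they overlapped (line difference -2.06, adjusted p = 6.83e-11). MYLK, the kinase that phosphorylates it, differed by -1.41, the focal adhesion adaptor TNS3 by -1.39, and ACTN1, an actin crosslinker, by -1.02. TNS3 fell in HCC4006 (-1.04) and rose in PC9 (0.35), and MYLK did the same (-0.98 and 0.43). Of 13 tested integrin subunits, out of 20 listed, 6 were called lower and 0 higher, led by ITGA5, the alpha chain of the fibronectin receptor (-1.36), and ITGB6, an epithelial integrin beta chain (-0.74).

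Matrix and mesenchymal genes moved apart between the lines. In the list of EMT (epithelial-mesenchymal transition) and mesenchymal genes 12 of 17 were tested and 10 were called lower, 0 higher, with a median line difference of -1.16. The median knockout change was -0.68 in HCC4006, where 8 members fell and 2 rose, and 0.51 in PC9, where 3 fell and 7 rose. COL6A2, a collagen VI chain, had 5.55, 6.38 and 6.13 FPKM in HCC4006 YAP1 KO, against 9.60, 10.1 and 9.72 in HCC4006 CTRL. PC9 had 23.1, 25.4 and 23.6 FPKM in YAP1 KO, against 8.01, 8.17 and 7.13 in CTRL. The groups were apart in both lines and in opposite directions (line difference -2.14, SE 0.078, adjusted p = 4.82e-14). SPARC, a secreted matrix glycoprotein, had 93.03, 95.9 and 96.2 FPKM in HCC4006 YAP1 KO against 179, 185 and 185 in HCC4006 CTRL, and 37.5, 39.4 and 37.6 in PC9 YAP1 KO against 21.2, 19.6 and 20.96 in PC9 CTRL (line difference -1.80, adjusted p = 7.14e-15), also opposite and without overlap.

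VIM, the intermediate filament of mesenchymal cells, had 441, 451 and 454 FPKM in HCC4006 YAP1 KO against 477, 529 and 532 in HCC4006 CTRL, and 27.5, 24.97 and 23.96 in PC9 YAP1 KO against 9.18, 8.64 and 15.2 in PC9 CTRL. Its line difference was -1.37 (adjusted p = 1.08e-06), with a change in HCC4006 of -0.19 that was not called (adjusted p = 0.178) and a rise in PC9 of 1.18. TWIST2, a mesenchymal transcription factor, likewise rose in PC9 (1.41) and was not called in HCC4006 (-0.14). FN1, fibronectin, fell in HCC4006 (-1.29) and had 0.16 in PC9 (adjusted p = 0.0669). SNAI2, the EMT factor SLUG, fell in HCC4006 (-0.74) and had -0.11 in PC9 (adjusted p = 0.321), with a line difference of -0.62 (adjusted p = 4.61e-04).

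In the wider matrix list 27 of 41 genes were tested, 17 called lower and 4 higher, with a median of -0.60. LOX, which crosslinks collagen, fell in HCC4006 and was under 1 FPKM in all PC9 libraries under OT (line difference -1.70). MFAP2, a microfibril protein, rose in both and more in PC9 (0.66 in HCC4006 and 2.18 in PC9). The summed level of 9 fibroblast markers was lower in HCC4006 YAP1 KO, at 7.32 to 7.77 FPKM against 20.9 to 22.1 in HCC4006 CTRL. In PC9 the sum was 2.35 to 2.73 in YAP1 KO against 1.90 to 2.30 in CTRL. The members did not all move alike. COL1A1, the only 1 of the 9 that passed the filter, rose in HCC4006, with 4.55 to 4.59 FPKM in YAP1 KO against 3.69 to 4.30 in CTRL. It also rose in PC9, and its line difference of -0.13 was not called. Most of the HCC4006 step was COL1A2, with a mean of 2.90 FPKM in YAP1 KO against 15.4 in CTRL. THY1 stood at 0 to 0.0254 FPKM in HCC4006 YAP1 KO against 1.53 to 1.98 in HCC4006 CTRL, and LUM was at 0 in all 3 HCC4006 YAP1 KO libraries against 0.175 to 0.256 in HCC4006 CTRL. The fibroblast receptor PDGFRB was at most 0.0296 FPKM and the fibroblast protease FAP at most 0.0813 FPKM in any HCC4006 library. COL3A1, PDGFRA and DCN were at 0 in every PC9 library under OT, and the part of other cells in these results was not tested.

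Epithelial genes did not mirror this as a group under OT. Of 31 tested junction and keratin genes 11 were called higher and 7 lower, with a median of 0.065. CDH1, E-cadherin, was called higher (0.38, adjusted p = 7.01e-05) through a fall in PC9 (-0.37), with 0.018 in HCC4006. OVOL1, an epithelial transcription factor, rose in HCC4006 (1.29) and had 0.057 in PC9 (line difference 1.23). The keratins KRT7 and KRT80 were called lower (-0.94 and -1.21), and KRT7 had 1444, 1490.4 and 1452 FPKM in HCC4006 YAP1 KO against 2759.8, 2904 and 2858 in HCC4006 CTRL, with overlapping PC9 groups.

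Cholesterol genes fell with the knockout in both lines, and much more in PC9. Of 25 genes in the list 24 were tested and 21 were called higher, 0 lower, with a median line difference of 0.65. The knockout changes had a median of -0.34 in HCC4006, where 16 fell and 2 rose, and -0.95 in PC9, where all 24 fell. The median level of the members was 9.54 FPKM in HCC4006 YAP1 KO and 13.2 in HCC4006 CTRL, and 14.7 in PC9 YAP1 KO and 31.0 in PC9 CTRL. INSIG1, which retains the sterol sensor SCAP in the endoplasmic reticulum and is itself induced by SREBP, had 9.86, 8.56 and 9.95 FPKM in HCC4006 YAP1 KO, against 9.32, 9.68 and 11.05 in HCC4006 CTRL. In PC9 it had 4.51, 4.30 and 4.42 in YAP1 KO, against 17.7, 18.2 and 19.8 in CTRL. Only the PC9 groups stood apart (line difference 1.78, SE 0.12, adjusted p = 5.19e-10).

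TM7SF2, a sterol reductase, differed by 1.62, with a rise in HCC4006 (0.29) and a fall in PC9 (-1.33). IDI1, the isopentenyl diphosphate isomerase, differed by 1.17 and DHCR7, the last reductase of the pathway, by 1.17. HMGCS1, the HMG-CoA synthase, fell in both lines (-0.70 and -0.78), and its line difference of 0.083 was not called (adjusted p = 0.35). Fatty acid genes shared the direction: 17 of 18 were tested, 11 called higher and 1 lower, with SCD, the stearoyl-CoA desaturase, at 1.43 and the desaturase FADS2 at 1.09. TM7SF2 and FADS2, with the epithelial gene OVOL1, lie in a stretch of 134 rows on chromosome 11 where PC9 YAP1 KO was lower in the median by 0.35, and DHCR7 in another of 46 rows (-0.27 in PC9); without members in such stretches 19 of 22 cholesterol genes were higher and the median was 0.62.

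DNA replication genes gave the clearest contrast that appeared under OT. All 30 S-phase genes were tested, 27 called higher and 1 (TK1) lower, with a median line difference of 0.64. The knockout lowered 28 of 30 in PC9 (median -0.68), and in HCC4006 13 fell and 5 rose (median -0.10). The median level of these genes was 3.74 FPKM in HCC4006 YAP1 KO and 3.83 in HCC4006 CTRL, against 5.85 in PC9 YAP1 KO and 11.5 in PC9 CTRL. So OT-treated PC9 control cells had the highest S-phase level of the 4 groups, and the knockout brought it towards the level of HCC4006. In bulk RNA, fewer cells of a kind (here in S phase) and less RNA per cell cannot be told apart.

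CDC6, a replication licensing factor, had 0.802, 0.685 and 0.646 FPKM in HCC4006 YAP1 KO, against 1.42, 1.07 and 1.16 in HCC4006 CTRL. In PC9 it had 1.19, 1.25 and 1.31 in YAP1 KO, against 4.82, 5.22 and 4.60 in CTRL. The groups were apart in both lines, with a wider gap in PC9 (line difference 1.01, SE 0.077, adjusted p = 2.04e-09). E2F1, the transcription factor of S-phase entry, had 1.03, 0.782 and 0.536 FPKM in HCC4006 YAP1 KO and 1.49, 1.27 and 0.760 in HCC4006 CTRL, which overlapped, and 1.71, 1.26 and 1.52 in PC9 YAP1 KO against 5.002, 5.39 and 4.75 in PC9 CTRL (line difference 1.00, adjusted p = 9.74e-06). CCNE2, cyclin E2, differed by 1.05 and RRM2, a subunit of ribonucleotide reductase, by 1.01. Levels near 1 FPKM are compressed by the added 1, and with 0.01 added instead 24 of the 30 were called higher and 1 lower (median 0.67).

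Mitotic genes did not follow. Of 30 G2/M genes 9 were called higher and 3 lower, beside 25.4% and 17.1% of all rows, with a median of 0.048. The knockout lowered 23 members in HCC4006 (median -0.34) and 28 in PC9 (median -0.40), with 0 higher in each. AURKA, Aurora kinase A, differed by 0.53 and UBE2C, a ubiquitin carrier of mitosis, by -0.54. MKI67, the proliferation marker, had -0.16 (adjusted p = 0.20), and CCND1, cyclin D1, fell in both lines with a line difference of 0.25 (adjusted p = 0.0848). With 0.1 in place of 1 added to FPKM, 5 G2/M genes were higher and 8 lower, and MKI67 was called at -0.50 (adjusted p = 0.00619). CCND1, which lies in the stretch described for DHCR7, was called at 0.39 (adjusted p = 2.13e-04) without HCC4006 CTRL OT replicate 1 and at 0.31 (adjusted p = 0.0411) without PC9 YAP1 KO OT replicate 1.

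The promoters of CDC6, at chr17:40287629-40287928 (plus strand), and E2F1, at chr20:33686336-33686635 (minus strand), are shown for the E2F motif, known from promoters of S-phase genes and searched as TTTCGCGC and TTTGGCGC on both strands and given in capitals. They are from the same RefSeq table and build.
CDC6: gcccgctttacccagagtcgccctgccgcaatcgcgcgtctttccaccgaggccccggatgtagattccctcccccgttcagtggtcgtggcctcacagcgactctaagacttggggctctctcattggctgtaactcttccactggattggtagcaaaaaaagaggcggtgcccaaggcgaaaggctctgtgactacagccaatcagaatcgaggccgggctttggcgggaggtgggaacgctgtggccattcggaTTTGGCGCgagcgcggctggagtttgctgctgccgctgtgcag
E2F1: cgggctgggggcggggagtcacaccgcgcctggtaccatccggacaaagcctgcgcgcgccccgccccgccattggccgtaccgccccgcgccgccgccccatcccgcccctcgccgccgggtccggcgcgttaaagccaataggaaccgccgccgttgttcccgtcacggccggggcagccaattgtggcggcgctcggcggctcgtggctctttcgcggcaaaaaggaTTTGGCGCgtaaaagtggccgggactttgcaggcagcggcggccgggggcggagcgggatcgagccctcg
Each holds 1 copy, which begins 7 bases after the start in CDC6 and 20 bases before it in E2F1. Of the 35116 promoters 403 hold either form (1.15%), or 1.40% of genes in the table. It was found in 10 of the 26 S-phase genes with an entry and in 2 of 25 G2/M genes.

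**Figure D3:**
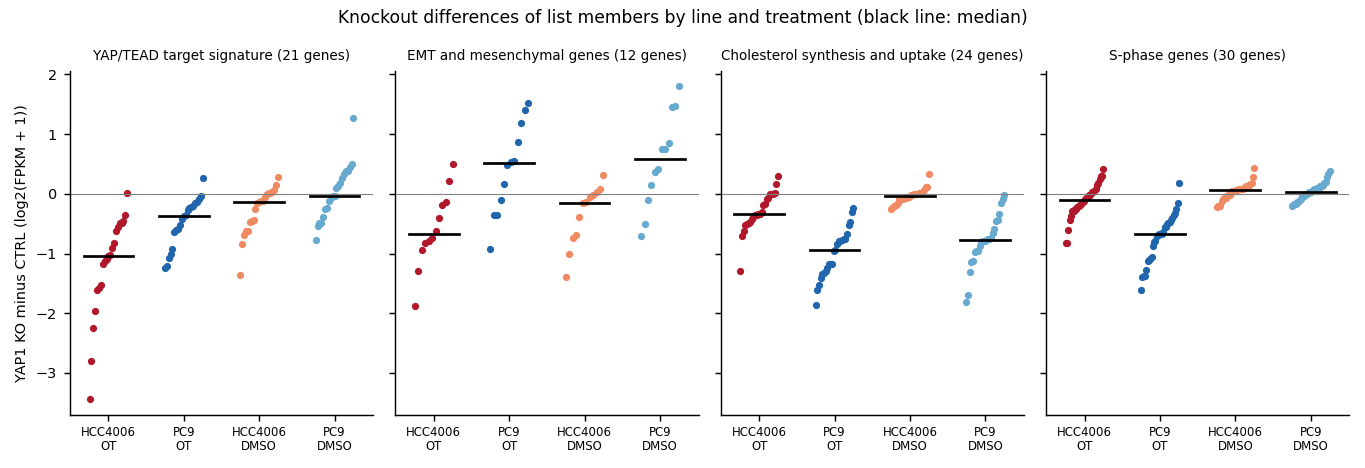
YAP1 KO minus CTRL (log2(FPKM + 1)) of each tested member of 4 gene lists, in HCC4006 and PC9 under OT and then under DMSO; the black line is the median. S-phase genes lie near 0 in all groups except PC9 under OT, where the median is -0.68, while the medians of EMT genes lie on opposite sides of 0 in the 2 lines under both treatments.

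Genes of apoptosis were split, with the BH3-only gene BMF the main difference. BMF, which encodes a sensor that binds survival proteins of the BCL2 family, had 159, 159 and 152 FPKM in HCC4006 YAP1 KO, against 112, 97.7 and 92.8 in HCC4006 CTRL. In PC9 it had 41.4, 40.9 and 43.4 in YAP1 KO, against 10.1, 10.001 and 10.98 in CTRL. BMF rose in both lines without overlap, 1.56-fold in HCC4006 and 4.05-fold in PC9 by the ratio of means, and the line difference was -1.28 (SE 0.10, adjusted p = 1.40e-09). HCC4006 CTRL cells were nonetheless at a higher BMF level than PC9 YAP1 KO cells. BCL2L11, which encodes BIM, rose in both lines (0.50 and 0.59), with a line difference of -0.10 (adjusted p = 0.481). PMAIP1 (NOXA) was called lower (-0.74), through a rise in PC9 (0.89), and so was the effector BAX (-0.45), while BAD was called higher (0.66). In all, 3 of 10 tested members of the pro-apoptotic list were higher and 4 lower, beside 25.4% and 17.1% of all rows. BAD lies in the chromosome 11 stretch described for TM7SF2.

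Among 20 tested p53 targets 7 were called lower and 0 higher, beside 17.1% and 25.4% of all rows. Leaving out 1 OT library at a time gave 5 lower (without HCC4006 CTRL replicate 3, HCC4006 YAP1 KO replicate 1 or PC9 CTRL replicate 1) to 10 lower (without HCC4006 CTRL replicate 1). With the 12 OT libraries fitted alone 4 were lower. CDKN1A, the CDK inhibitor p21, had 78.9, 88.3 and 121 FPKM in HCC4006 YAP1 KO and 64.5, 73.8 and 117 in HCC4006 CTRL, which overlapped, and 17.3, 20.04 and 20.7 in PC9 YAP1 KO against 6.64, 7.27 and 7.80 in PC9 CTRL, which did not (line difference -1.11, adjusted p = 3.80e-04). GDF15, a stress-induced cytokine, also rose in PC9 (0.57) and had -0.36 in HCC4006 (adjusted p = 0.0591; line difference -0.93).

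Several ligands and receptors fell further in HCC4006. Among bypass receptor kinases and their ligands, which can replace EGFR signalling, 13 of 26 were tested, 7 called lower and 1 higher. The shares over all rows were 17.1% and 25.4%. Leaving out 1 OT library at a time gave 5 to 8 lower and 0 to 1 higher, with 5 lower without HCC4006 CTRL replicate 1. GAS6, the ligand of AXL, had 34.5, 37.6 and 35.5 FPKM in HCC4006 YAP1 KO, against 113, 116 and 119 in HCC4006 CTRL. In PC9 it had 63.2, 61.6 and 64.1 in YAP1 KO, against 72.7, 65.8 and 67.5 in CTRL. The HCC4006 groups were far apart and the PC9 groups close together (line difference -1.55, SE 0.053, adjusted p = 2.57e-14). MET, the HGF receptor, had 2.87, 2.60 and 2.68 FPKM in HCC4006 YAP1 KO against 9.39, 8.62 and 9.02 in HCC4006 CTRL, and 91.2, 84.2 and 83.8 in PC9 YAP1 KO against 100.2, 101 and 100.1 in PC9 CTRL, lower in both lines by different factors (line difference -1.21, adjusted p = 8.69e-12). HBEGF, an EGFR ligand, differed by -1.29, with all PC9 libraries under OT below 1 FPKM.

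EGFR itself was not called (-0.17, adjusted p = 0.524), and its sign rested on 1 library, since HCC4006 CTRL OT had 18.4, 10.2 and 9.46 FPKM and the line difference was 0.12 (adjusted p = 0.304) without replicate 1. Of 9 tested EGF family ligands and ERBB receptors, 5 were called higher and 1 lower, and 3 were higher without either HCC4006 CTRL OT replicate 3 or HCC4006 YAP1 KO OT replicate 2. Among cytokine and NF-kappaB target genes 15 of 29 were tested, 2 higher and 7 lower, with IL32 at -1.93 and IL11 at -1.28, both falling in HCC4006 and rising in PC9. The TGF-beta list had 1 member higher and 8 lower of 19 tested, beside 25.4% and 17.1% of all rows. Genes of MAPK pathway output, which OT acts on directly, had 3 higher and 3 lower of 17, or 6 lower without HCC4006 CTRL OT replicate 3. Many were low under OT, where a difference is hardly detectable: their median level was 0.486 FPKM in HCC4006 YAP1 KO and 0.924 in HCC4006 CTRL, and 1.30 in PC9 YAP1 KO and 1.30 in PC9 CTRL. With the filter taken over the OT columns 6 of the 17 were tested, and with 0.01 in place of 1 added to FPKM the median line difference was -0.52 in place of -0.10.

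Stress genes went both ways. For every list in this paragraph the shares over all rows were 25.4% higher and 17.1% lower. Of 24 tested genes of the integrated stress response 11 were called higher and 7 lower. PSAT1, of serine synthesis, rose in HCC4006 (0.32) and fell in PC9 (-0.76; line difference 1.08). CHAC1, a glutathione-degrading enzyme, had 41.8, 44.5 and 37.1 FPKM in HCC4006 YAP1 KO against 23.2, 24.4 and 20.9 in HCC4006 CTRL and was under 1 FPKM in PC9 under OT (line difference 0.84, adjusted p = 0.00213). HMOX1, heme oxygenase, had 77.1, 79.3 and 80.9 FPKM in HCC4006 YAP1 KO against 28.98, 30.7 and 32.4 in HCC4006 CTRL, and 21.1, 22.04 and 20.2 in PC9 YAP1 KO against 17.2, 19.1 and 19.4 in PC9 CTRL (line difference 1.16, adjusted p = 4.27e-09). HMOX1 thus rose in both lines, with a wide gap in HCC4006 and a narrow one in PC9. Interferon response genes had 11 higher and 3 lower of 29 tested, or 5 lower without HCC4006 CTRL OT replicate 1, with IFIT1, an antiviral effector, at 0.64. Higher and lower members numbered 6 and 3 of 21 for NRF2 targets, 5 and 5 of 28 for ribosome biogenesis, 8 and 4 of 22 for glycolysis, and 3 and 9 of 26 for lysosome and autophagy. They numbered 2 and 4 of 12 for AP-1 and immediate early genes, 2 and 2 of 8 for survival BCL2 family members and IAPs, 2 and 4 of 11 for lung and secretory epithelium, and 3 and 1 of 8 for MHC class I.

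Most of the largest line differences belonged to genes outside these lists. LRRN1, a neuronal leucine-rich repeat protein, had 1.14, 0.476 and 0.848 FPKM in HCC4006 YAP1 KO, against 12.7, 11.5 and 12.1 in HCC4006 CTRL. In PC9 it had 9.35, 8.11 and 9.60 in YAP1 KO, against 4.66, 4.15 and 4.85 in CTRL. It fell in HCC4006 and rose in PC9 without overlap, for a line difference of -3.71 (SE 0.14, adjusted p = 9.80e-14). RRAD, a small GTPase, did the same, with 2.71, 2.59 and 2.87 FPKM in HCC4006 YAP1 KO against 10.2, 9.57 and 12.9 in HCC4006 CTRL, and 14.7, 16.4 and 15.6 in PC9 YAP1 KO against 3.51, 3.19 and 2.58 in PC9 CTRL (line difference -3.69, adjusted p = 6.81e-14). SEPP1 (now SELENOP), the selenium transport protein, had 6.66, 6.44 and 7.71 FPKM in HCC4006 YAP1 KO against 7.78, 8.96 and 9.47 in HCC4006 CTRL, and 61.6, 56.5 and 58.5 in PC9 YAP1 KO against 11.6, 12.003 and 11.5 in PC9 CTRL, a 5.04-fold ratio in PC9 (line difference -2.53). GPR176, an orphan receptor, was nearly lost in HCC4006 YAP1 KO, at 0.344, 0.280 and 0.240 FPKM against 5.22, 4.22 and 3.91 in HCC4006 CTRL, and rose in PC9 (line difference -2.68).

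The chemokine receptor CXCR4 (-2.53), the vitamin D hydroxylase CYP24A1 (-2.26), CPA4 (-2.23) and KAL1, now ANOS1 (-2.16), completed the lowest 10 with CTGF and CGB5 (-2.49), whose near-identical gonadotropin copies can share reads, so that its value is uncertain. CXCR4, CYP24A1 and KAL1 fell in HCC4006 and rose in PC9. CXCR4 was low, with 1.80, 2.01 and 1.29 FPKM in HCC4006 CTRL and 0.222, 0.195 and 0.418 in HCC4006 YAP1 KO under OT. It reached FPKM 1 in HCC4006 only in the CTRL OT libraries, and in PC9 only in YAP1 KO libraries. CXCR4 thus passed the filter only through the groups where it was high. PEG10, BCAT1 and IGFBP5 also fell in HCC4006 and rose in PC9 by nearly equal amounts (-0.95 and 0.95 for PEG10, -0.96 and 0.95 for BCAT1, -0.88 and 0.88 for IGFBP5).

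At the other end stood MOK, a protein kinase, with 3.09, 3.54 and 3.30 FPKM in HCC4006 YAP1 KO and 1.93, 2.96 and 2.88 in HCC4006 CTRL, but 9.29, 8.60 and 9.44 in PC9 YAP1 KO against 37.7, 36.8 and 37.1 in PC9 CTRL. Its line difference of 2.19 (SE 0.11, adjusted p = 8.56e-12) thus lay mostly in PC9, with a small rise in HCC4006 (0.28). The metallothionein MT1G (2.19), whose close family copies can share reads, ZNF114 (1.86), GABRE (1.85), EPHX3 (1.79) and PLEKHS1 (1.69) rose in HCC4006 and fell in PC9. Others moved in HCC4006 alone by these calls. CALML5 (1.94), a calmodulin-like protein of differentiating epidermis, rose in HCC4006 and was not called in PC9. The same held for MSMB (1.93), a secreted prostate and mucosal protein, and CLEC7A (1.89), the lectin dectin-1. MSMB lost its call with 0.1 in place of 1 added to FPKM (adjusted p = 0.0812). In HCC4006, CALML5 reached FPKM 1 only in the YAP1 KO OT libraries (4.31, 5.66 and 5.75, against 0.487, 0.831 and 0.274 in CTRL OT). CLEC7A reached it there in YAP1 KO OT (7.78, 5.13 and 6.83) and otherwise only in CTRL OT replicate 3 (1.04). Both thus passed the filter in HCC4006 through the group where they were high. The remaining members of the highest 10, NBL1 (2.13, adjusted p = 0.00808) and HYPK (1.86, adjusted p = 0.0451), were low and uneven between replicates. NBL1 overlaps the readthrough row MINOS1-NBL1, whose line difference of -0.71 was not called, and HYPK, in a stretch of 57 rows on chromosome 15 that was higher in HCC4006 YAP1 KO (median 0.30), lost its call when any 1 of 7 libraries was left out. Rows of short RNAs were set aside in choosing these genes and supplied 3 of the 96 and 4 of the 196 rows at 2-fold.

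**Figure D4:**
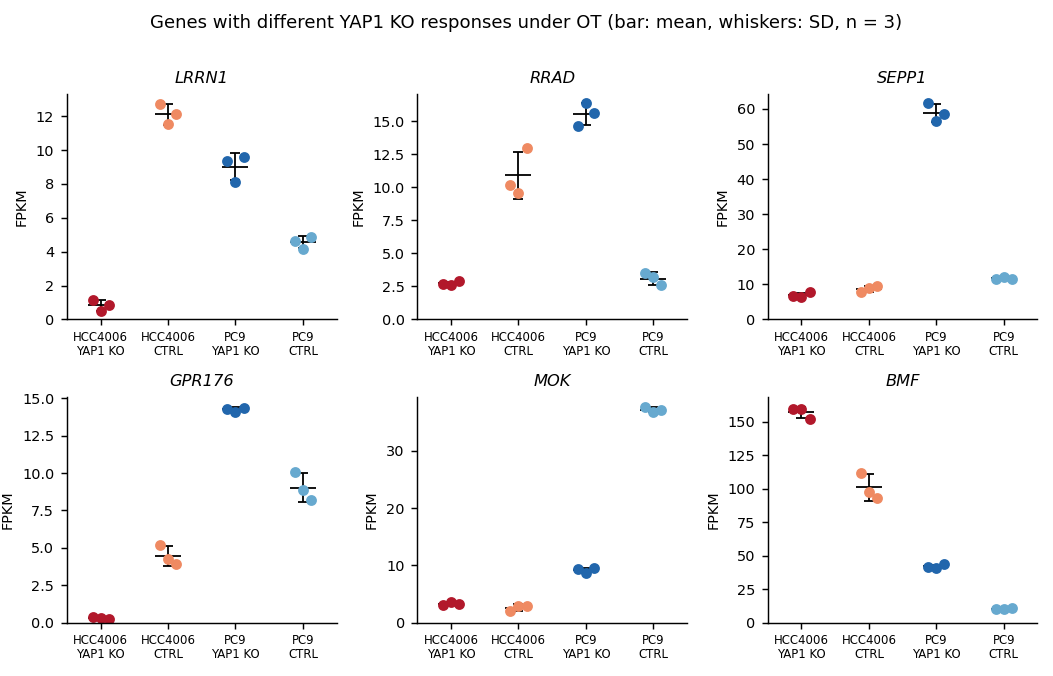
FPKM of 6 genes in each of the 12 OT libraries (points), with the mean and SD of each group of 3. LRRN1, RRAD and GPR176 are lower in HCC4006 YAP1 KO and higher in PC9 YAP1 KO than in CTRL, SEPP1 rises in PC9, MOK falls in PC9, and BMF rises in both lines.

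The same line difference in the 12 DMSO libraries shows which contrasts were there without the inhibitors. Under DMSO 1982 rows were called higher (16.7%) and 1575 lower (13.3%), 30.0% in all, with 40 (0.338%) and 102 (0.861%) at 2-fold. Both treatments called 2334 rows, which is 46.3% of the OT calls and 65.6% of the DMSO calls, and 2200 of these had the same direction. Across the 11845 rows the line differences under OT and DMSO had a Pearson r of 0.414 and a Spearman rho of 0.569, given as a description because rows share libraries. Subtracting the DMSO value from the OT value gave a called change in 836 rows higher (7.06%) and 758 lower (6.4%), 13.5% in all; with each library rescaled to the same FPKM sum the split was 526 higher and 753 lower. Of the 292 rows at 2-fold under OT, 211 were called in the same direction under DMSO, and 172 had a called change that made the line difference larger under OT, 5 smaller and 115 neither.

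Lists differed in how far their contrast was present in DMSO and how far it changed with OT, and some did both. EMT genes had 0 higher and 9 lower of 12 under DMSO (median -0.68), and 3 had a called decrease with OT. The wider matrix list had 5 higher and 19 lower of 27 under DMSO (median -0.46), with 3 called higher and 8 lower under OT than under DMSO. Integrin subunits had 0 higher and 6 lower of 13 under DMSO (median -0.27), with 2 called higher and 2 lower under OT than under DMSO. Cholesterol genes had 21 higher and 0 lower of 24 under DMSO (median 0.72), with 1 called higher and 4 lower under OT than under DMSO. Epithelial junction and keratin genes had 14 higher and 4 lower of 31 under DMSO (median 0.21). Of these, 3 were called higher and 10 lower under OT than under DMSO. COL6A2 and SPARC had DMSO values of -2.17 and -1.87 beside -2.14 and -1.80 under OT, and INSIG1 1.71 beside 1.78, so each differed by less than 0.1 between treatments.

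S-phase genes had the largest share of members that changed between treatments among the 28 lists. Under DMSO 3 were called higher and 3 lower of 30, with a median of -0.0022, and 26 of 30 had a called increase with OT and 0 a decrease. CDC6 had a line difference of 0.063 under DMSO (adjusted p = 0.587), and the change with treatment was 0.95 (adjusted p = 7.24e-06). G2/M genes went the other way, with 22 higher and 0 lower under DMSO (median 0.34), and 11 with a called decrease under OT. YAP/TEAD targets had 2 higher and 10 lower of 21 under DMSO (median -0.08), and 10 had a called decrease with OT and 1 an increase. CTGF had -1.01 under DMSO and changed by -1.35 (adjusted p = 1.30e-05), AMOTL2 had 0.031 and changed by -0.96 (adjusted p = 1.22e-05), and ANKRD1, at -1.82 under DMSO, had a change of -0.28 that was not called (adjusted p = 0.331). Actin genes had 3 higher and 12 lower under DMSO, and 14 had a called decrease with OT.

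BMF was a contrast of OT alone among these tests: its DMSO value was -0.073 (adjusted p = 0.607), and the change with treatment was -1.21 (adjusted p = 5.13e-06). MET had -0.048 under DMSO and a called change of -1.17, and GAS6 -0.37 and -1.18. The stress response list had 1 higher and 11 lower of 24 under DMSO, and 12 members had a called increase with OT and 3 a decrease. NUPR1, a stress-induced chromatin protein, had -2.31 under DMSO and -0.64 under OT, with 708, 731 and 713 FPKM in HCC4006 YAP1 KO against 475, 613 and 623 in HCC4006 CTRL under OT (change 1.67, adjusted p = 1.02e-04). KRT4, a mucosal keratin, had -0.056 under DMSO and -1.80 under OT (change -1.75, adjusted p = 1.11e-05).

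**Figure D5:**
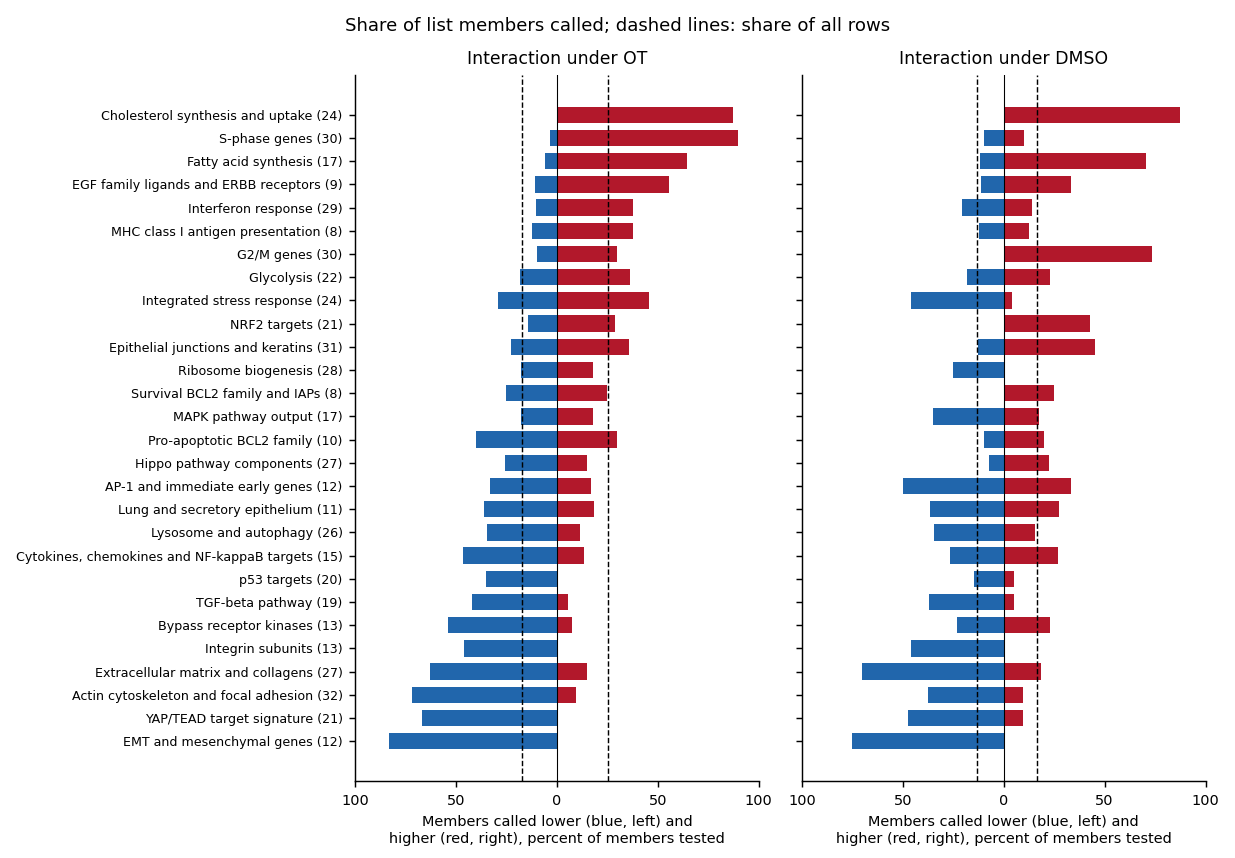
Share of the tested members of each gene list called lower (blue, to the left) or higher (red, to the right) for the line difference under OT and under DMSO, as percent of the members tested (number in brackets); dashed lines are the shares over all 11845 rows, 17.1% and 25.4% under OT and 13.3% and 16.7% under DMSO. EMT and YAP/TEAD lists lie to the left and cholesterol genes to the right in both, while S-phase genes reach far to the right only under OT.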

How the data were processed

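The authors deposited 1 table of FPKM per gene row and library; per the submitters' processing notes the tools were STAR 2.5.1b, Cufflinks 2.2.1 and DESeq2 1.10.1 and the builds hg19 and GRCh37, with no role or order given, and no source used here names the annotation. RNA was extracted with TRIzol from 10 cm dishes, per the labels' protocols, and libraries were made with a stranded kit. FPKM are not counts, absolute depth is unknown, and no count model was run. Symbols were taken as deposited, and 28 rows whose symbols had become dates (18 of them tested) are not named.

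Values were taken as log2(FPKM + 1) and fitted with limma 3.58.1 in R 4.3.3 over 24 libraries in 8 groups, with group means, no covariate and an intensity trend, which left 16 residual degrees of freedom and a median residual SD of 0.0815. Fold changes on this scale understate low genes. Adjusted p-values are Benjamini-Hochberg over all tested rows. Data for 11845 rows were also simulated from the CTRL means with normal noise. Changes of 0.5 and of 1 on the log2 scale were planted in 100 rows each, none of low mean level. For the OT interaction the fit recovered 90% of changes of 0.5 and 98% of changes of 1, and 6% of its calls were unchanged rows. Recovery in low rows was not measured, and far fewer rows were changed than were called in the data.

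The members, lists and tests were chosen with earlier results of these data known. Genes named were the 10 highest and lowest rows, up to 4 called members per list, opposite rows, rows with large treatment differences and a fixed set of YAP and EGFR pathway genes, with some left out; DOCK5, LATS2, TK1 and MINOS1-NBL1 were named after their values were seen. Alternatives covered the pseudocount, filter, scaling, libraries fitted, variance model, replicate number and single libraries left out. Promoters are from RefSeq, and their coordinates are on another build than the deposited table, so they were matched by symbol only. A gene that the rule names is not reported here.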

Additional observations from a re-analysis of the deposited data

Results flagged for a closer look

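The whole comparison is a difference between groups under the same contrast, tested by the interaction itself with limma. Called genes from the report are listed here for that reason, not all 5037 called rows. The knockout change was higher in HCC4006 than in PC9 in 3008 rows and lower in 2029. All values below are line differences on the log2(FPKM + 1) scale, and the p-values of the main ones stand in the report.

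YAP1 differed by 0.35 and TEAD2 by -0.70. Among the YAP/TEAD targets the values were -2.36 for CTGF, -1.58 for CYR61, -2.10 for ANKRD1, -1.45 for F3, -0.93 for AMOTL2, -0.75 for AXL, -0.69 for TGFB2 and -0.53 for IGFBP3. Among actin, adhesion and matrix genes they were -2.06 for MYL9, -1.41 for MYLK, -1.39 for TNS3, -1.02 for ACTN1, -1.36 for ITGA5, -0.74 for ITGB6, -2.14 for COL6A2, -1.80 for SPARC, -1.70 for LOX and -1.53 for MFAP2. Mesenchymal and epithelial genes gave -1.55 for TWIST2, -1.44 for FN1, -1.37 for VIM, -0.62 for SNAI2, 0.38 for CDH1, -0.94 for KRT7, -1.21 for KRT80, 1.23 for OVOL1 and -1.80 for KRT4.

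Lipid genes gave 1.78 for INSIG1, 1.62 for TM7SF2, 1.17 for IDI1, 1.17 for DHCR7, 1.43 for SCD and 1.09 for FADS2. Cell cycle genes gave 1.05 for CCNE2, 1.01 for CDC6, 1.01 for RRM2, 1.00 for E2F1, 0.53 for AURKA and -0.54 for UBE2C. Apoptosis genes and p53 targets gave -1.28 for BMF, -0.74 for PMAIP1, 0.66 for BAD, -0.45 for BAX, -1.11 for CDKN1A and -0.93 for GDF15. Ligands, receptors and cytokines gave -1.29 for HBEGF, -1.55 for GAS6, -1.21 for MET, -1.93 for IL32 and -1.28 for IL11. Stress and interferon genes gave 1.08 for PSAT1, 0.84 for CHAC1, -0.64 for NUPR1, 1.16 for HMOX1 and 0.64 for IFIT1.

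The lowest rows had -3.71 for LRRN1, -3.69 for RRAD, -2.68 for GPR176, -2.53 for SEPP1, -2.53 for CXCR4, -2.49 for CGB5, -2.26 for CYP24A1, -2.23 for CPA4, -2.16 for KAL1, -1.91 for PEG10, -1.91 for BCAT1 and -1.76 for IGFBP5. The highest rows had 2.19 for MOK, 2.19 for MT1G, 2.13 for NBL1, 1.94 for CALML5, 1.93 for MSMB, 1.89 for CLEC7A, 1.86 for HYPK, 1.86 for ZNF114, 1.85 for GABRE, 1.79 for EPHX3 and 1.69 for PLEKHS1.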

How the results depend on the processing

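Counts of 3008 higher and 2029 lower rows stayed within 1.5 times under every planned change of pseudocount, filter, scaling, variance model and libraries fitted, from 2408 to 3574 and from 1378 to 2870. Testing against a difference of 1 left 16 and 72. The 96 and 196 rows at 2-fold became 62 and 98 with a filter at FPKM 5, 180 and 329 with 0.1 added to FPKM, and 193 and 351 with 0.01 added. With each library rescaled to the same FPKM sum, 526 rows in place of 836 had a higher OT than DMSO line difference. Leaving out 1 OT library at a time gave 2741 to 3062 higher and 1851 to 2225 lower rows, 88 to 101 and 192 to 203 at 2-fold, and moved no count of list members by more than 3 in the 28 lists. Without HCC4006 CTRL OT replicate 1, 14 YAP/TEAD targets, 22 actin and 10 EMT genes were lower and 21 cholesterol and 27 S-phase genes higher. Replicate numbers did not pair the samples (correlation of same-numbered deviations between YAP1 KO and CTRL of 0.043, -0.073 and 0.057 in HCC4006 and 0.249, -0.013 and 0.048 in PC9), and with the replicate block 3011 rows were higher and 2059 lower.

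Of the 87 genes named, 79 kept their direction and their side of the threshold under every alternative. HYPK lost its call under 12 and MSMB under 2 (both small pseudocounts), and MKI67 and CCND1 gained theirs under 2 and 3. Genes near 0 that changed sign were not called in either case. WWTR1 was 0.023 with sample quality weights and -0.049 to 0.034 with 1 library left out, TEAD1 0.077 and -0.065 to 0.11, EGFR 0.047 and -0.33 to 0.12, and BCL2L11 -0.16 to 0.0070 with 1 library left out; the cause was not tested. FPKM below about 1 limit what can be seen, since 1 added to them compresses their changes.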

Other observations

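Neighbouring genes moved together in a few chromosome stretches, a pattern noticed after seeing the data. With rows placed in RefSeq gene order, a stretch was taken where the running median of 25 neighbouring rows was at least 0.25 in size for the knockout under OT. In PC9 YAP1 KO cells the stretch from TNFRSF18 to DHRS3 on chromosome 1 (103 rows) had a median knockout change of -0.37 under OT and -0.40 under DMSO, and the stretch from TMEM132A to SLC29A2 on chromosome 11 (134 rows) had -0.35 and -0.36. Another 3 PC9 stretches lay on chromosome 1 and 1 more on chromosome 11, all lower in YAP1 KO. HCC4006 YAP1 KO had higher stretches from CKMT1B to RFX7 on chromosome 15 (57 rows, 0.30), from RAB40C to TELO2 (26 rows, 0.29) and ZC3H7A to CDR2 (57 rows, 0.30) on chromosome 16, and from SLMO2-ATP5E to PPDPF on chromosome 20 (28 rows, 0.35), and a lower one from SNPH to CDC25B on chromosome 20 (27 rows, -0.31).

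In all 625 rows lay in such stretches, and 70.7% of them were called for the line difference, 401 higher and 41 lower, against 41.0% of the 11220 other rows. The stretches were chosen by the same OT knockout changes that make up the line difference, so their higher share of calls follows from the choice and is a description. Rows at 2-fold were few there, 20 higher and 3 lower. Without the stretches, an alternative chosen after seeing the data, 2607 rows were higher and 1988 lower, with 76 and 193 at 2-fold. The cause was not tested.

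The share of rows called differed with the level of the gene. It was 29.8% for rows with a mean under 2 FPKM, 35.8% from 2 to 5, 43.7% from 5 to 20, 49.8% from 20 to 100 and 47.1% above 100 FPKM.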
